A study of Mus musculus with 8 samples.

Results

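The genes described are 55 antiviral interferon-stimulated genes, listed by name with earlier results of these data known, and all 55 were found among the 46078 genes of the count table. Shares of the list set beside shares of all genes are therefore descriptions. RNA-Seq counts were taken from BV-2, which is one immortalized microglial line of the mouse and was received as a gift, with 2 biological replicates for each of 4 groups. All cells were kept without serum for 4 hours. Control cells received solvent and no LPS. LPS cells stood for 20 hours in 100 ng/mL lipopolysaccharide, the bacterial endotoxin, here from the E. coli F583 Rd mutant. AGE+LPS cells were given aged garlic extract (AGE, 0.5% v/v) and FruArg+LPS cells were given FruArg (3 mM), a sugar-arginine compound found in that extract, each from 1 hour before the same LPS exposure. By the labels, every replicate 1 was read in lane 3 and every replicate 2 in lane 6, and the library names of replicate 2 also share a prefix that those of replicate 1 lack and whose meaning is not given in the sources used here. The replicate number thus stands for a lane and for this prefix in all 4 groups, which cannot be told apart, and values called within-lane are within a replicate number. Control libraries held 2707500 and 8995052 counts, LPS libraries 8720784 and 12069807, AGE+LPS libraries 6795464 and 6669072, and FruArg+LPS libraries 4692715 and 5822113 (replicate 1, then replicate 2, as in each pair of values that follows). Levels are given as CPM, a gene's counts divided by the total of its library and brought to one common library size. TMM scaling, which corrects the totals so that most genes read alike between libraries, was applied over the 8 libraries. On this scale 3 counts, taken as the detection floor, are worth 0.276 to 0.934 CPM, and this floor covers counting error only.

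Interferon-stimulated genes are switched on when type I interferon binds its receptor and the kinases JAK1 and TYK2 phosphorylate STAT proteins, which join IRF9 and bind a DNA element called the ISRE. In macrophages and microglia, LPS can start this program through TLR4 and the adaptor TRIF, which lead to interferon beta. The products sense viral nucleic acid, degrade or hide RNA, block entry, replication or release of viruses, and feed back on the same signal.

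The cells were checked against marker genes. Of 15 microglia and macrophage markers, Adgre1 was the most abundant (626 to 2292 CPM) and Sall1 had no counts in any library, while Tmem119 did not exceed 1.38 CPM and Cx3cr1 did not exceed 4.03 CPM. The 15 markers summed to 4245 and 5083 CPM in control, 4573 and 5121 CPM under LPS, 4578 and 5251 CPM under AGE+LPS and 5869 and 5933 CPM under FruArg+LPS. Within these sums, members differed in opposite directions. From control to LPS, means were higher for, among others, Adgre1 (649 to 1655 CPM), Cd68 (416 to 553) and Ptprc (554 to 794). They were lower for, among others, Trem2 (464 to 175 CPM), Tyrobp (565 to 305), Csf1r (383 to 278) and Itgam (163 to 75.2). Markers of neurons, astrocytes, oligodendrocytes, lymphocytes, and endothelium and fibroblasts, 5 genes each, summed to at most 2.57 CPM for any of these lists in any library. By the mean over the 8 libraries, the most abundant gene was Tubb3 for neurons, Slc1a2 for astrocytes, Cd3d for lymphocytes, and Pecam1 for endothelium and fibroblasts. Rbfox3, Snap25, Syt1, Aqp4, Aldh1l1, Mog, Olig2, Cd3e, Cd79a and Cldn5 had no counts in any library.

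Summed over the 55 genes, the level reached 3568 and 4758 CPM in control and 31550.1 and 42095 CPM under LPS. Under AGE+LPS it was 11081 and 12766 CPM, and under FruArg+LPS 12844 and 23231 CPM. The LPS libraries were thus the highest and the control libraries the lowest, and the FruArg+LPS libraries had the largest ratio between replicates. Rsad2 held the largest part in every library with LPS, whereas Rnf213 did in both control libraries, and without Rsad2 the sums were 3421 and 4535, 23289 and 30353, 9180.1 and 10327, and 10982 and 18216 CPM in the same order of groups. Replicate 2 (lane 6) read higher than replicate 1 (lane 3) for most of these genes: the median log2 ratio of replicate 2 to replicate 1 was 0.49 in control cells, 0.51 with LPS, 0.36 with AGE+LPS and 0.93 with FruArg+LPS, against medians between -0.02 and 0.02 over all genes. In FruArg+LPS cells all 55 were higher in replicate 2. In bulk RNA, fewer cells that express a gene and less of its RNA per cell cannot be told apart.

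LPS raised nearly the whole list above control. Of the 55 genes, 54 were called up by edgeR's quasi-likelihood test (at least 2-fold, Benjamini-Hochberg adjusted p below 0.05), where 11.5% of the 12888 genes tested were called up. The median log2 fold change was 2.42, against 0.02 over all genes tested. The LPS and control libraries did not overlap for the same number, 54, with LPS higher, as was so for 31.6% of all genes tested, and Ube2l6 was the exception. Scaling by library size alone moved the median of all genes by log2 -0.42 and left 49 called, against 7.23% of all genes, without Dhx58, Eif2ak2, Trim25, Lgals3bp and Tdrd7.

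Of the 5 largest increases, 4 were in effectors and 1 was in a DNA sensor, Ifi205. Ifi205, a member of the PYHIN family of DNA-binding proteins (chr1:174011998-174031810), had 0.622 and 2.43 CPM in control, 64.7 and 202 CPM under LPS, 9.99 and 19.1 CPM under AGE+LPS and 14.7 and 48.3 CPM under FruArg+LPS. Its control libraries held 2 and 26 counts, the first under the floor of 3, so the size of its fold is uncertain, and every LPS-exposed library lay above them. Against control, LPS gave log2 6.17 ± 0.642 (SE, adjusted p = 0.00015 by edgeR's quasi-likelihood test). Rsad2 encodes viperin, which makes a nucleotide analog that ends viral RNA chains (chr12:26442746-26456452), and had 147 and 223 CPM in control, 8261 and 11743 CPM under LPS, 1901 and 2439 CPM under AGE+LPS and 1861 and 5014 CPM under FruArg+LPS. The groups stood apart in the order control, AGE+LPS or FruArg+LPS, LPS, with the FruArg+LPS libraries on either side of both AGE+LPS libraries. LPS changed Rsad2 by log2 5.79 ± 0.386 (SE, adjusted p = 1.8e-05 by edgeR's quasi-likelihood test). Mx1, a gene of the interferon-induced Mx GTPase family (chr16:97447035-97462907), had 4.05 and 4.96 CPM in control, 137 and 276 CPM under LPS, 14.0 and 18.5 CPM under AGE+LPS and 16.3 and 42.2 CPM under FruArg+LPS. Whether BV-2 cells make a working Mx1 protein was not tested. All 4 co-treated libraries lay between control and LPS. For Mx1 the LPS effect was log2 5.51 ± 0.396 (SE, adjusted p = 2.6e-05 by edgeR's quasi-likelihood test). Cmpk2, a mitochondrial nucleotide kinase (chr12:26469204-26479837), had 59.1 and 71.2 CPM in control, 2408 and 2957 CPM under LPS, 512 and 540.2 CPM under AGE+LPS and 791 and 1738 CPM under FruArg+LPS. No 2 groups overlapped for Cmpk2, and FruArg+LPS lay above AGE+LPS. Its response to LPS was log2 5.39 ± 0.290 (SE, adjusted p = 5.3e-06 by edgeR's quasi-likelihood test). Ifit1, which binds foreign RNA caps (chr19:34640871-34650009), had 18.1 and 40.0 CPM in control, 734 and 1410.3 CPM under LPS, 199 and 348 CPM under AGE+LPS and 211 and 551 CPM under FruArg+LPS. LPS stood highest, and the co-treated groups overlapped each other. The test gave log2 5.20 ± 0.452 (SE, adjusted p = 6.4e-05 by edgeR's quasi-likelihood test). Across alternative settings the log2 fold change ran from 5.11 to 7.73 for Ifi205, from 5.36 to 6.11 for Rsad2, from 4.91 to 5.93 for Mx1, from 4.97 to 5.54 for Cmpk2 and from 4.64 to 5.91 for Ifit1. For Ifi205 the ends were reached without LPS replicate 2 and without control replicate 2.

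At the low end of the response stood 5 genes of different roles. Ube2l6, the conjugating enzyme that passes on ISG15, had 56.6 and 80.4 CPM in control, 75.9 and 114 CPM under LPS, 74.7 and 94.2 CPM under AGE+LPS and 66.9 and 107 CPM under FruArg+LPS. All groups overlapped, and LPS against control came to log2 0.50 ± 0.261 (SE, adjusted p = 0.18 by edgeR's quasi-likelihood test), so Ube2l6 was not called. With the replicate block its edgeR adjusted p was 0.011, still under 2-fold (range 0.011 to 0.85 across alternative settings). Lgals3bp, a secreted glycoprotein that binds galectins, had 50.7 and 44.4 CPM in control, 113 and 94.9 CPM under LPS, 49.5 and 38.5 CPM under AGE+LPS and 53.6 and 95.2 CPM under FruArg+LPS. LPS exceeded control, whereas AGE+LPS overlapped control. Lgals3bp had log2 1.17 ± 0.212 (SE, adjusted p = 0.0029 by edgeR's quasi-likelihood test). Without control replicate 2, Lgals3bp was not called (edgeR adjusted p = 0.051, range over the alternatives 3.8e-07 to 0.051), and neither was Trim34a (edgeR adjusted p = 0.079, range over the alternatives that tested it 0.00013 to 0.079), the latter chosen after its values were seen. Tdrd7, a Tudor domain protein, had 72.2 and 67.0 CPM in control, 149.6 and 167 CPM under LPS, 92.9 and 90.4 CPM under AGE+LPS and 102 and 123 CPM under FruArg+LPS. LPS was highest, and Tdrd7 had log2 1.23 ± 0.199 (SE, adjusted p = 0.0016 by edgeR's quasi-likelihood test). Trim25, a ubiquitin ligase that acts on the RNA sensor RIG-I, had 131 and 125 CPM in control, 317 and 321 CPM under LPS, 206 and 202 CPM under AGE+LPS and 282 and 302 CPM under FruArg+LPS. Control was lowest, and Trim25 had log2 1.35 ± 0.196 (SE, adjusted p = 0.00087 by edgeR's quasi-likelihood test). Eif2ak2, the kinase PKR that stops translation on binding double-stranded RNA, had 107 and 163 CPM in control, 267 and 420.5 CPM under LPS, 135 and 201 CPM under AGE+LPS and 133 and 266 CPM under FruArg+LPS. Its control libraries overlapped with those of AGE+LPS and of FruArg+LPS, and LPS gave log2 1.38 ± 0.284 (SE, adjusted p = 0.0056 by edgeR's quasi-likelihood test). Across alternative settings the log2 fold change ran from 0.75 to 1.30 for Lgals3bp, from 0.80 to 1.31 for Tdrd7, from 0.93 to 1.39 for Trim25 and from 0.95 to 1.71 for Eif2ak2, with all 4 lowest with scaling by library size.

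By role, the medians of LPS against control were ordered as follows. The 13 effectors and GTPases had a median log2 fold change of 4.40 (2.35 to 5.79). The 4 genes of ISG15 conjugation, a ubiquitin-like tag, had 3.31. The 7 sensors, including the RNA helicases Ifih1 (MDA5), Ddx58 (RIG-I) and Dhx58 (LGP2) and the Z-form nucleic acid sensor Zbp1, had 2.62. The 6 genes of transcription and nuclear bodies (Stat2, Nmi, Ifi35, Sp100, Daxx and Phf11d) had 2.32. The 5 of the PARP family and its partner Dtx3l had 2.11, the 6 of the TRIM family with the giant ubiquitin ligase Rnf213 had 2.09, the 6 other genes had 2.08, and the 8 OAS and double-stranded RNA enzymes had 1.93. Every group was called up in full except ISG15 conjugation, with 3 of 4, where 11.5% of all genes tested were called up.

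Levels per kilobase of exon, which allow genes to be compared, are means of the replicates of a group. By these means Rsad2 was the most abundant of the 55 in LPS cells (2307 CPM per kb). The virus-tethering protein Bst2 (2094) and Isg15 (1307) followed, then Ifit2 (743) and Cmpk2 (644). Rsad2 and Bst2 changed places between LPS replicates: Bst2 stood above Rsad2 in replicate 1 and below it in replicate 2. In control cells Bst2 led (421 CPM per kb) and Rsad2 ranked 5 (42.7). In AGE+LPS cells the order was Bst2 (1049), Isg15 (523) and Rsad2 (501), and in FruArg+LPS cells Bst2 (1729), Isg15 (865) and Rsad2 (793). In both of these groups Isg15 stood above Rsad2 in replicate 1 and below it in replicate 2. By the means, Bst2 was thus first in every group but LPS, where it was first in replicate 1 only.

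AGE+LPS cells held less of these RNAs than LPS cells. All 55 log2 fold changes were negative (54 without LPS replicate 2, where Ube2l6 was positive), with a median of -1.20 against -0.00 over all genes tested, and 50 had an unadjusted p below 0.05, as had 17.8% of all genes. Under edgeR, 7 of 55 were called down, where 0.503% of the 12317 genes tested were. With the replicate block, which removes the mean difference between replicate numbers, 37 were called down against 4.82% of all genes, and DESeq2 called 36, against 2.65%. The blocked fit has 1 residual degree of freedom per gene and takes its spread mostly from all genes together (pooled degrees of freedom 105, against 4.79 without the block), so its small p-values rest on that pooled spread. This also holds for the fits with a library left out (pooled degrees of freedom 98.9 or infinite) and with a filter of 1 count (infinite). Leaving out a library also raised the count: 36 were called without LPS replicate 1 (against 2.94% of all genes), 23 without LPS replicate 2 (against 2.23%), and 21 or 31 once replicate 1 or replicate 2 of AGE+LPS was dropped (against 1.7% and 2.55%), in fits where the lone library is assumed to vary like the other group. For 52 genes both AGE+LPS libraries lay below both LPS libraries, as for 23.3% of all genes tested. Ifi203, Lgals9 and Ube2l6 were the exceptions.

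Within each lane, the AGE+LPS library was set against the LPS library of the same lane number, as a difference of log2 CPM. All 55 were lower in both lanes, as were 39% of all genes, and 31 were at least 2-fold lower in both, as were 3.3% of all genes. The median difference was -1.07 in lane 3 and -1.30 in lane 6. Scaled by library size, which moved the median of all genes by 0.15 in the fit, 54 were lower in both lanes, Ube2l6 being the exception, against 27.8% of all genes, and 26 were at least 2-fold lower, against 2.46%.

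Mx1 lay furthest below LPS of the 55, with a difference of -3.26 in lane 3 and -3.88 in lane 6. From LPS to AGE+LPS it showed log2 -3.67 ± 0.393 (SE, adjusted p = 0.036 by edgeR's quasi-likelihood test). Ifi205 came next (-2.66 in lane 3 and -3.39 in lane 6), with log2 -3.20 ± 0.588 (SE, adjusted p = 0.060 by edgeR's quasi-likelihood test). It missed the call without the block, whereas blocking on replicate gave an edgeR adjusted p of 4.8e-40 (range 4.8e-40 to 0.066 across alternative settings). Ifit2, a partner of Ifit1 in binding RNA (chr19:34550694-34576419), had 88.1 and 149 CPM in control, 2137 and 3702 CPM under LPS, 348 and 523 CPM under AGE+LPS and 329.8 and 1125 CPM under FruArg+LPS. AGE+LPS lay far under LPS and above control. Ifit2 differed by -2.62 in lane 3 and -2.82 in lane 6, with log2 -2.74 ± 0.361 (SE, adjusted p = 0.039 by edgeR's quasi-likelihood test). Cmpk2 differed by -2.23 in lane 3 and -2.45 in lane 6, with log2 -2.35 ± 0.236 (SE, adjusted p = 0.036 by edgeR's quasi-likelihood test). Isg20, an exonuclease that degrades single-stranded RNA (chr7:78913424-78920396), had 3.73 and 7.21 CPM in control, 104 and 141 CPM under LPS, 21.5 and 27.9 CPM under AGE+LPS and 25.2 and 59.1 CPM under FruArg+LPS. Its co-treated libraries all lay between control and LPS. Isg20 differed by -2.25 in lane 3 and -2.33 in lane 6, with log2 -2.31 ± 0.263 (SE, adjusted p = 0.036 by edgeR's quasi-likelihood test).

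Phf11d, a PHD finger protein (chr14:59347407-59365470), had 59.4 and 109 CPM in control, 499 and 850.1 CPM under LPS, 100.4 and 184 CPM under AGE+LPS and 137 and 330.3 CPM under FruArg+LPS. One AGE+LPS library, replicate 1, was below control replicate 2. The differences from LPS were -2.31 in lane 3 and -2.20 in lane 6, and the fit gave log2 -2.24 ± 0.384 (SE, adjusted p = 0.057 by edgeR's quasi-likelihood test), while blocking on replicate gave an edgeR adjusted p of 1.6e-38 (range 1.6e-38 to 0.062 across alternative settings). Ifi47, an immunity-related GTPase (chr11:49076587-49096974), had 12.8 and 18.4 CPM in control, 104 and 213 CPM under LPS, 23.8 and 42.3 CPM under AGE+LPS and 23.8 and 82.7 CPM under FruArg+LPS. AGE+LPS lay between control and LPS. Ifi47 differed by -2.11 in lane 3 and -2.32 in lane 6, with log2 -2.26 ± 0.422 (SE, adjusted p = 0.061 by edgeR's quasi-likelihood test), and blocking on replicate gave an edgeR adjusted p of 5.6e-34 (range 5.6e-34 to 0.067 across alternative settings). Rsad2 differed by -2.12 in lane 3 and -2.27 in lane 6, with log2 -2.20 ± 0.299 (SE, adjusted p = 0.040 by edgeR's quasi-likelihood test). The other called genes were Usp18, which strips ISG15 from proteins and dampens the interferon receptor, at log2 -1.54 ± 0.209 (SE, adjusted p = 0.040 by edgeR's quasi-likelihood test), and Daxx, a histone chaperone of nuclear bodies, at log2 -1.49 ± 0.199 (SE, adjusted p = 0.039 by edgeR's quasi-likelihood test). Usp18 and Daxx stand outside the naming rule and were chosen after their values were seen. Mx1, Ifit2, Cmpk2, Isg20, Rsad2, Usp18 and Daxx were called under every alternative, with adjusted p of at most 0.047 by edgeR or DESeq2. Across alternative settings the log2 fold change ran from -4.09 to -3.07 for Mx1, from -3.80 to -2.16 for Ifi205, from -3.09 to -2.30 for Ifit2, from -2.74 to -1.81 for Phf11d, from -2.72 to -1.65 for Ifi47 and from -2.43 to -1.93 for Rsad2, and each was closest to 0 without LPS replicate 2.

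At the other end, Ube2l6 differed least (-0.02 in lane 3 and -0.27 in lane 6), with log2 -0.17 ± 0.265 (SE, adjusted p = 0.81 by edgeR's quasi-likelihood test), and its direction turned without LPS replicate 2 (log2 0.15). Zbp1 had 0.311 and 1.12 CPM in control, 18.0 and 19.6 CPM under LPS, 14.5 and 13.9 CPM under AGE+LPS and 9.17 and 21.7 CPM under FruArg+LPS. Both AGE+LPS values lay below LPS, and Zbp1 had log2 -0.40 ± 0.245 (SE, adjusted p = 0.46 by edgeR's quasi-likelihood test). Lgals9, a galectin, had 19.0 and 28.9 CPM in control, 78.7 and 112 CPM under LPS, 46.6 and 94.1 CPM under AGE+LPS and 74.5 and 116 CPM under FruArg+LPS. AGE+LPS and LPS overlapped, and Lgals9 had log2 -0.44 ± 0.360 (SE, adjusted p = 0.59 by edgeR's quasi-likelihood test), which ran from -1.03 (without AGE+LPS replicate 2) to -0.0252 (without AGE+LPS replicate 1) across alternative settings. Parp10, a mono-ADP-ribosyltransferase, had 66.9 and 72.5 CPM in control, 323 and 279 CPM under LPS, 215 and 181 CPM under AGE+LPS and 233 and 286 CPM under FruArg+LPS. AGE+LPS lay below LPS, with log2 -0.60 ± 0.211 (SE, adjusted p = 0.20 by edgeR's quasi-likelihood test). With the block, none of these 4 was called: the edgeR adjusted p was 1.1e-07 for Parp10 and 0.00015 for Lgals9, each under 2-fold, and 0.064 for Zbp1 and 0.26 for Ube2l6, and over the alternatives the 4 genes' values lay between 1.1e-07 and 0.9963.

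Among all genes tested between AGE+LPS and LPS, 0.503% were called down, 4.82% with the block and 2.65% by DESeq2. An unadjusted p below 0.05 was found for 17.8%. By role, the median log2 fold change of AGE+LPS against LPS was -2.20 for the effectors and GTPases (5 of 13 called, 12 with the block, 13 by DESeq2, 13 at an unadjusted p below 0.05). It was -1.43 for ISG15 conjugation (1 of 4 called, 3 with the block, 3 by DESeq2, 3 at an unadjusted p below 0.05) and -1.35 for transcription and nuclear bodies (1 of 6 called, 6 with the block, 5 by DESeq2, 6 at an unadjusted p below 0.05). In the other groups edgeR called none without the block. The TRIM family and Rnf213 had -1.27 (0 of 6 called, 4 with the block, 3 by DESeq2, 5 at an unadjusted p below 0.05), and the sensors had -1.12 (0 of 7 called, 4 with the block, 3 by DESeq2, 5 at an unadjusted p below 0.05). The OAS and double-stranded RNA enzymes had -0.98 (0 of 8 called, 3 with the block, 4 by DESeq2, 8 at an unadjusted p below 0.05). The PARP family and Dtx3l had -0.98 (0 of 5 called, 2 with the block, 2 by DESeq2, 5 at an unadjusted p below 0.05), and the remaining genes had -1.01 (0 of 6 called, 3 with the block, 3 by DESeq2, 5 at an unadjusted p below 0.05). With the block, those called were Isg15, Usp18 and Herc6 in ISG15 conjugation, Trim21, Trim30a, Trim30d and Rnf213 in the TRIM group, Ifih1, Ifi203, Ifi204 and Ifi205 among the sensors, Oasl1, Oasl2 and Eif2ak2 in the OAS group, Parp14 and Dtx3l in the PARP family, and Xaf1, Tor3a and Lgals3bp among the remaining genes, named after their values were seen. The lane 3 and lane 6 medians were -1.88 and -2.27 for the effectors and -0.97 and -0.96 for the OAS group.

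**Figure D1:**
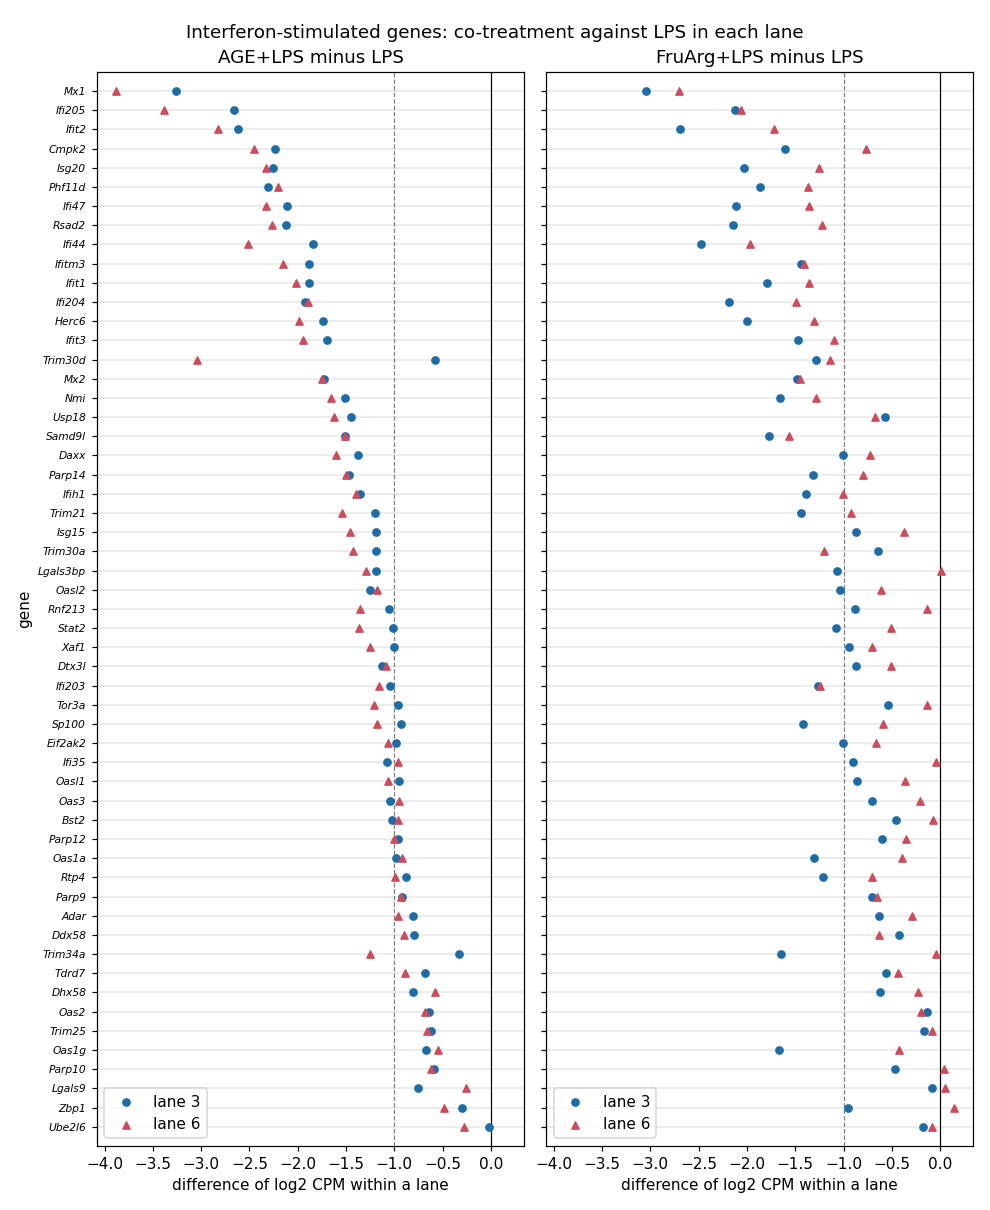
Difference of log2 CPM between each co-treatment and LPS for the 55 genes (1 line each, ordered by the AGE+LPS mean), with 1 point per lane (circle, lane 3; triangle, lane 6), a solid line at 0 and a dashed line at 2-fold lower. AGE+LPS points are all below 0, from -0.02 to -3.88, whereas FruArg+LPS triangles lie mostly to the right of the circles (medians -0.66 and -1.08).

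With FruArg+LPS, edgeR called 0 of 55 down against LPS, and 0% of all 12071 genes tested, although 54 log2 fold changes were negative and 30 had an unadjusted p below 0.05, as had 12.8% of all genes. DESeq2 called 10, against 0.853% of all genes. The median was -0.80 against -0.01 over all genes. With the replicate block 22 were called down, against 3.48% of all genes. The count moved with single libraries. It was 33 without FruArg+LPS replicate 2 (median -1.31, against 6.89% of all genes called) and 19 without LPS replicate 1 (against 1.11%). Without FruArg+LPS replicate 1 it was 2, Mx1 and Ifi44 (median -0.47, against 0.233%), and without LPS replicate 2 it was 1, Mx1 (against 0.0245%). Both FruArg+LPS libraries lay below both LPS libraries for 45 genes, as for 24% of all genes tested. The exceptions were Lgals3bp, Lgals9, Oas2, Parp10, Parp9, Sp100, Trim30d, Trim34a, Ube2l6 and Zbp1. This comparison shares its LPS libraries with the one of AGE+LPS.

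Within lanes, 51 of 55 were lower than LPS in both, as were 36.1% of all genes, and 19 were at least 2-fold lower in both, as were 2.71%. Lgals3bp, Lgals9, Parp10 and Zbp1 were not lower in both, and with RLE factors Lgals3bp was. The median difference was -1.08 in lane 3 and -0.66 in lane 6. Beside these stand the AGE+LPS medians of -1.07 and -1.30.

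Mx1 again lay furthest below LPS of the 55 (-3.05 in lane 3 and -2.70 in lane 6), with log2 -2.81 ± 0.478 (SE, adjusted p = 0.18 by edgeR's quasi-likelihood test). Ifi44, an interferon-induced cytoplasmic protein, had 0.934 and 3.84 CPM in control, 61.1 and 119 CPM under LPS, 16.8 and 20.6 CPM under AGE+LPS and 10.8 and 30.4 CPM under FruArg+LPS. FruArg+LPS lay under LPS, and its replicates lay on either side of both AGE+LPS values. Ifi44 differed by -2.47 in lane 3 and -1.96 in lane 6, with log2 -2.12 ± 0.487 (SE, adjusted p = 0.21 by edgeR's quasi-likelihood test). Ifit2 differed by -2.70 in lane 3 and -1.72 in lane 6, with log2 -2.00 ± 0.525 (SE, adjusted p = 0.23 by edgeR's quasi-likelihood test). Ifi205 differed by -2.12 in lane 3 and -2.06 in lane 6, with log2 -2.08 ± 0.607 (SE, adjusted p = 0.27 by edgeR's quasi-likelihood test). Ifi204, a DNA sensor of the same cluster as Ifi205, had 78.1 and 181 CPM in control, 611 and 1328 CPM under LPS, 161 and 358 CPM under AGE+LPS and 134 and 473 CPM under FruArg+LPS. FruArg+LPS replicate 2 lay above both AGE+LPS values and replicate 1 below them. Ifi204 differed by -2.19 in lane 3 and -1.49 in lane 6, with log2 -1.67 ± 0.555 (SE, adjusted p = 0.29 by edgeR's quasi-likelihood test). Ifi47 (-2.11 in lane 3 and -1.36 in lane 6) had log2 -1.56 ± 0.529 (SE, adjusted p = 0.30 by edgeR's quasi-likelihood test). Rsad2 (-2.15 in lane 3 and -1.23 in lane 6) had log2 -1.54 ± 0.446 (SE, adjusted p = 0.27 by edgeR's quasi-likelihood test). Samd9l, which restricts poxviruses, had 57.9 and 85.6 CPM in control, 372 and 809 CPM under LPS, 131 and 284 CPM under AGE+LPS and 109 and 273 CPM under FruArg+LPS. FruArg+LPS lay below LPS in both lanes, with differences of -1.77 in lane 3 and -1.57 in lane 6, with log2 -1.63 ± 0.473 (SE, adjusted p = 0.27 by edgeR's quasi-likelihood test). Single libraries moved these values: across alternative settings the log2 fold change ran from -3.66 to -2.21 for Mx1, from -3.07 to -1.55 for Ifi44, from -3.15 to -1.37 for Ifit2 and from -3.19 to -1.03 for Ifi205, and from -2.86 to -1.003 for Ifi204, from -2.73 to -0.93 for Ifi47, from -2.43 to -0.99 for Rsad2 and from -2.44 to -0.96 for Samd9l. All 8 lay furthest below LPS without FruArg+LPS replicate 2. They were closest to LPS without LPS replicate 2 (Mx1, Ifi44, Ifi205, Ifi204 and Samd9l) or without FruArg+LPS replicate 1 (Ifit2, Ifi47 and Rsad2). With the block all 8 were called, with edgeR adjusted p between 3.4e-19 and 3.1e-07, and across alternative settings these 8 had adjusted p of 3.4e-19 to 0.86.

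Lgals9 differed least (-0.08 in lane 3 and 0.05 in lane 6), with log2 0.000774 ± 0.297 (SE, edgeR adjusted p = 0.9998), whose sign changed with the processing. Trim25 (-0.17 in lane 3 and -0.09 in lane 6) had log2 -0.12 ± 0.226 (SE, adjusted p = 0.83 by edgeR's quasi-likelihood test). Ube2l6 (-0.18 in lane 3 and -0.09 in lane 6) had log2 -0.12 ± 0.310 (SE, adjusted p = 0.88 by edgeR's quasi-likelihood test). Oas2, which makes the oligoadenylates that activate RNase L, had 38.3 and 33.9 CPM in control, 100.4 and 141 CPM under LPS, 64.2 and 87.4 CPM under AGE+LPS and 91.0 and 122 CPM under FruArg+LPS. FruArg+LPS and LPS overlapped, and Oas2 had log2 -0.17 ± 0.272 (SE, adjusted p = 0.80 by edgeR's quasi-likelihood test). The directions of Ube2l6 and Oas2 reversed without LPS replicate 2 (log2 0.21 and 0.0946) and without FruArg+LPS replicate 1 (log2 0.18 and 0.0313).

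Without the block, edgeR called 0 genes of any role between FruArg+LPS and LPS, and 0% of all genes tested. Among all genes, 3.48% were called down with the block and 0.853% by DESeq2, and 12.8% had an unadjusted p below 0.05. The median log2 fold change was -1.53 for the effectors (12 of 13 called with the block, 7 by DESeq2, 12 at an unadjusted p below 0.05) and -1.14 for the sensors (4 of 7 called with the block, 0 by DESeq2, 4 at an unadjusted p below 0.05). Transcription and nuclear bodies had -0.84 (2 of 6 called with the block, 2 by DESeq2, 4 at an unadjusted p below 0.05), and the TRIM family and Rnf213 had -0.77 (1 of 6 called with the block, 0 by DESeq2, 2 at an unadjusted p below 0.05). The OAS group had -0.67 (1 of 8 called with the block, 0 by DESeq2, 3 at an unadjusted p below 0.05), and the PARP family had -0.65 (1 of 5 called with the block, 0 by DESeq2, 1 at an unadjusted p below 0.05). ISG15 conjugation had -0.60 (1 of 4 called with the block, 1 by DESeq2, 2 at an unadjusted p below 0.05), and the remaining genes had -0.48 (0 of 6 called with the block, 0 by DESeq2, 2 at an unadjusted p below 0.05). Outside the effectors, those called with the block were Ifih1, Ifi203, Ifi204 and Ifi205 among the sensors, Nmi and Phf11d in transcription and nuclear bodies, Trim21 in the TRIM group, Oas1g in the OAS group, Parp14 in the PARP family and Herc6 in ISG15 conjugation, named after their values were seen.

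**Figure D2:**
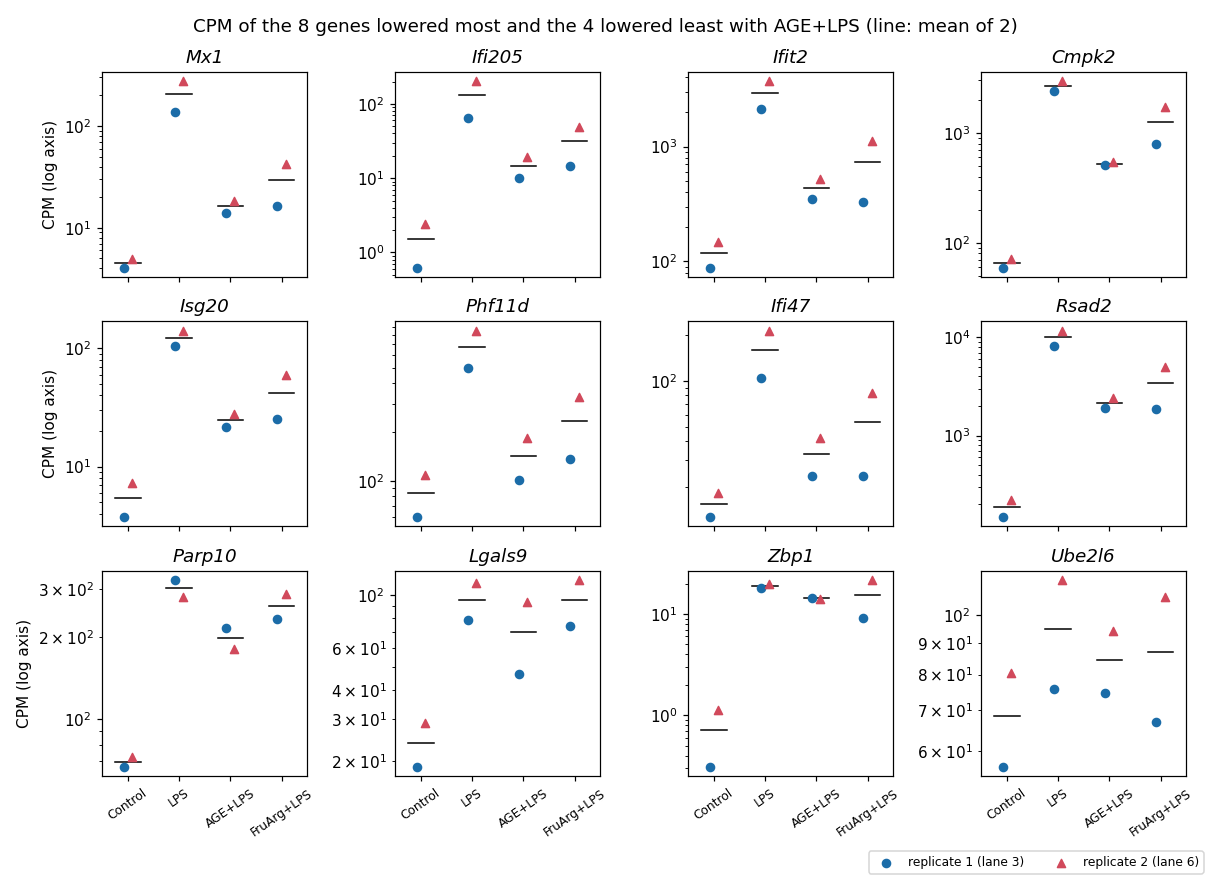
CPM on a log axis in each of the 8 libraries for the 8 genes furthest below LPS and the 4 closest to it in AGE+LPS within lanes (circle, replicate 1 in lane 3; triangle, replicate 2 in lane 6; line, mean of 2). Rsad2 stands at 8261 and 11743 CPM with LPS and 1901 and 2439 CPM with AGE+LPS, while Ube2l6 stays between 56.6 and 114 CPM in all libraries.

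Whether the co-treatments left these genes at different levels was tested directly. The doses are an extract by volume and a pure compound, so they are not matched. Of 55 log2 fold changes of FruArg+LPS against AGE+LPS, 52 were positive, or 48 with scaling by library size, which moved the median of all genes by -0.14, and the median was 0.45 against -0.02 over all genes. EdgeR called 0 up, and 0% of 11915 genes tested, with 10 of the 55 at an unadjusted p below 0.05, as were 5.61% of all genes, and DESeq2 called 0, and 0% of all genes. With the replicate block 1 was called up, against 0.546% of all genes. This was Cmpk2, at log2 1.15 ± 0.213 (SE, adjusted p = 0.0064 by edgeR's quasi-likelihood test) with the block and log2 1.26 ± 0.343 (SE, adjusted p = 0.84 by edgeR's quasi-likelihood test) without it, with edgeR and DESeq2 adjusted p from 0.0061 to 0.84 across all settings. FruArg+LPS lay above AGE+LPS without overlap for 18 genes, as for 18.4% of all genes tested. In lane 3, 35 of 55 were higher with FruArg+LPS (median difference 0.15, 49.4% of all genes higher), and in lane 6, 53 of 55 were (median 0.66, 50.1% of all genes higher). Without FruArg+LPS replicate 2 the median was -0.04, with 24 positive, and without FruArg+LPS replicate 1 it was 0.79, with all 55 positive and 2 called (Cmpk2 and Ifi205, against 0.0644% of all genes). A p that misses the threshold does not show that the co-treatments act alike.

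Usp18 was chosen after its values were seen. It had 111 and 137 CPM in control, 944 and 1077 CPM under LPS, 346 and 349 CPM under AGE+LPS and 636 and 674 CPM under FruArg+LPS. FruArg+LPS exceeded AGE+LPS in both lanes, by 0.88 and 0.95, at log2 0.91 ± 0.230 (SE, adjusted p = 0.84 by edgeR's quasi-likelihood test). With the block it stood at log2 0.91 ± 0.168 (SE, adjusted p = 0.0064 by edgeR's quasi-likelihood test), under 2-fold, with edgeR and DESeq2 adjusted p from 0.0055 to 0.9998 across all settings. Ranked by distance below LPS, Usp18 was number 18 of 55 with AGE+LPS and 36 with FruArg+LPS, and Cmpk2 was number 4 and 20.

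Against control, most of the list was called up under both co-treatments. Of 54 genes tested (Trim30d was not), 36 were called up in AGE+LPS cells, against 7.64% of the 12449 genes tested, with a median log2 fold change of 1.18. In FruArg+LPS cells 41 of 54 were called up, against 9.59% of 12038 genes, with a median of 1.59. Scaling by library size moved the median of all genes by -0.25 and -0.40 and called 24 and 31, against 5.49% and 5.88% of all genes. These comparisons share the control libraries. Lgals3bp had the lowest value with AGE+LPS, -0.09, the single negative one of 54, and Ube2l6 the lowest with FruArg+LPS, 0.36.

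Of 36 other genes of the pathway, 30 were tested between LPS and control, with 21 at an unadjusted p below 0.05, against 41.4% of all genes. Called down were 0 by edgeR and DESeq2, where edgeR called 1433 and DESeq2 1252 of all 12888 genes tested down. Called up were 15, against 11.5% of all genes. Those called included the kinases Jak2 and Tyk2, Stat3, the interferon regulatory factors Irf1, Irf5 and Irf7, the double-stranded RNA receptor Tlr3, the adaptors Ticam1 (TRIF) and Ticam2, the kinases Tbk1 and Ikbke, and the feedback inhibitors Socs1, Socs3 and Ptpn2. Irf7, which drives interferon genes, had 83.4 and 128 CPM in control, 882 and 989 with LPS, 337 and 364 with AGE+LPS and 429 and 681 with FruArg+LPS. All 4 groups were separate, and LPS changed it by log2 3.17 ± 0.267 (SE, adjusted p = 5.4e-05 by edgeR's quasi-likelihood test). The interferon genes Ifna1, Ifna2, Ifna4 and Ifng had no counts in any library. Ifnb1, interferon beta, was not tested, with 1.000 and 2.21 CPM with LPS, at most 0.760 CPM in any other library and 0 in replicate 1 of control, AGE+LPS and FruArg+LPS. The receptor chains Ifnar1 and Ifnar2 were not called in any of these comparisons.

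Between AGE+LPS and LPS, Irf7 was the 1 of 31 tested that was called down, against 0.503% of all genes, at log2 -1.42 ± 0.209 (SE, adjusted p = 0.046 by edgeR's quasi-likelihood test), with edgeR and DESeq2 adjusted p from 1.7e-24 to 0.053 across all settings, the highest being with RLE factors, the 1 setting in which it was not called. DESeq2 called 6 of these genes down, against 2.65% of all genes. In edgeR without the block, 16 of 31 had an unadjusted p below 0.05, against 17.8% of all genes. With the replicate block 8 of 31 were called down (Stat3, Irf1, Irf2, Irf5, Irf7, Tlr3, Ticam2 and the DNA sensor Mb21d1, or cGAS) and 1 up (the inhibitor Cish), against 4.82% and 4.91% of all genes. Tlr3 had 34.4 and 84.3 CPM with LPS and 11.3 and 22.6 with AGE+LPS, and with the block it fell at log2 -1.78 ± 0.142 (SE, adjusted p = 1.1e-20 by edgeR's quasi-likelihood test), with edgeR and DESeq2 adjusted p from 1.1e-20 to 0.14 across all settings. Between FruArg+LPS and LPS edgeR called 0 of 31, with 9 at an unadjusted p below 0.05, against 12.8% of all genes, and DESeq2 called 1 (Socs3, up), against 0.82%. With the block Tlr3 and Ticam2 were called down and Socs3 up, against 3.48% and 2.87% of all genes. Socs3, an inhibitor of cytokine signaling, had 46.4 and 29.7 CPM with LPS and 99.0 and 85.3 with FruArg+LPS, without overlap, at log2 1.32 ± 0.192 (SE, adjusted p = 2.4e-07 by edgeR's quasi-likelihood test) with the block and edgeR and DESeq2 adjusted p from 2.4e-07 to 0.62 across all settings. Between FruArg+LPS and AGE+LPS edgeR called 0 with or without the block and DESeq2 called 0, with 4 (Stat3, Irf5, Irf7 and Myd88) at an unadjusted p below 0.05 in edgeR without it, against 5.61% of all genes.

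Many of the 55 genes are neighbors: 22 lie in 8 clusters with gaps of at most 250000 bases (GRCm38). Ifit2, Ifit3 and Ifit1 lie at chr19:34550694-34650009, Ifi204, Ifi203 and Ifi205 at chr1:173747293-174031810, Oas2, Oas3, Oas1g and Oas1a at chr5:120730333-120907521, and Mx1 and Mx2 at chr16:97447035-97560900. The GENCODE annotation gives Mx2 as a polymorphic pseudogene. Rsad2 and Cmpk2 face away from each other on chromosome 12, 12752 bases apart at their 5′ ends. With AGE+LPS, the within-lane mean difference from LPS was -2.19 for Rsad2 and -2.34 for Cmpk2, -1.01 for Oasl1 and -1.22 for Oasl2, and -3.57 for Mx1 and -1.74 for Mx2. It was -2.72 for Ifit2, -1.82 for Ifit3 and -1.95 for Ifit1, and -1.91 for Ifi204, -1.10 for Ifi203 and -3.02 for Ifi205. In the other clusters it was -1.48 for Parp14, -1.11 for Dtx3l and -0.93 for Parp9, -0.66 for Oas2, -0.998 for Oas3, -0.61 for Oas1g and -0.96 for Oas1a, and -0.79 for Trim34a, -1.31 for Trim30a and -1.81 for Trim30d. Some neighbors thus had close values and others did not. Reads may be shared between related genes (Oas1a and Oas1g, Oasl1 and Oasl2, Trim30a and Trim30d, Ifi203, Ifi204 and Ifi205, Ifit1, Ifit2 and Ifit3, Mx1 and Mx2). Such sharing was not measured, so their separate values are uncertain. Overlaps on the same strand of Ifi203 with Mndal, Parp10 with Plec and Trim30d with a pseudogene also make values uncertain. Parp9 overlaps Dtx3l and an antisense gene, and Oasl1 an antisense gene, on the opposite strand, and these values are uncertain too, since the strand setting of the counting is not given in the sources used here. Further overlaps, each with a gene of far fewer counts, are those of Ifi47 with Olfr56 on the same strand and Adar with Chrnb2 on the opposite. Ifi47, Eif2ak2, Oas2, Trim30a and Sp100 also overlap such genes on the opposite strand. Trim30d and Trim34a had few reads, at most 10.8 and 7.26 CPM, and their mean differences rest mostly on lane 6. Trim30d had -0.57 in lane 3 and -3.05 in lane 6, and Trim34a -0.33 and -1.25, beside -1.19 and -1.43 for Trim30a.

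Promoter sequences were looked up because LPS raised nearly all of these genes together. RefSeq windows on GRCm38.p6, from 250 bases before to 50 after a start of transcription, were held for 43 of the 55 genes. Parp10, Dhx58, Zbp1, Mx2, Oas2, Tor3a, Mx1, Rtp4, Ifi204, Parp9, Parp14 and Usp18 were not matched. An ISRE-like motif, GAAANNGAA on either strand, was found in the window of 22 of 43 genes (51.2%), against 8.56% of 32851 windows of this length, and at least 2 matches in 13 genes, against 0.624% of windows. The 43 genes count 1 window each, whereas the 32851 windows include several for some genes. Over all 55 windows of the listed genes, 26 (47.3%) held the motif. Overlapping matches were counted separately: both matches of Bst2, Eif2ak2, Oas1a, Oas1g, Oas3 and Trim21 overlap each other, as do some of Ifit1 and Isg15. A GAS-like motif, TTCNNNGAA, which reads alike on both strands, was found in 7 genes (16.3%), against 8.3% of windows, and 4 genes held both. Of the 38 ISRE-like matches, 2 overlapped a GAS-like match. Genes with and without an ISRE-like match had medians of 2.46 and 2.40 for LPS against control and -1.34 and -1.19 for AGE+LPS against LPS. A match describes letters only, and a window without one says nothing about binding.

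The windows of the 7 matched genes among the 8 furthest below LPS in AGE+LPS are printed 5′ to 3′ on the strand of the gene, with ISRE-like and GAS-like matches in capitals. They lie at chr1:174031706-174032005 (minus strand) for Ifi205, chr19:34550444-34550743 (plus) for Ifit2, chr12:26468965-26469264 (plus) for Cmpk2, chr7:78913174-78913473 (plus) for Isg20, chr14:59365441-59365740 (minus) for Phf11d, chr11:49076337-49076636 (plus) for Ifi47 and chr12:26456403-26456702 (minus) for Rsad2. Ifi205 holds 2 ISRE-like matches and Rsad2 holds 1, Ifit2 and Isg20 hold 1 GAS-like match each, and Cmpk2, Phf11d and Ifi47 hold neither.
Ifi205: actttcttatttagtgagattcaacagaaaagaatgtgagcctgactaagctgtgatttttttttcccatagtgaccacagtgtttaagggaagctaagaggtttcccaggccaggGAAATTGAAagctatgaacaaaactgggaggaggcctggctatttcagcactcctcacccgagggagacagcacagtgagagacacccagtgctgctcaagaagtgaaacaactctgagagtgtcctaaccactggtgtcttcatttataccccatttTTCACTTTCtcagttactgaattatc
Ifit2: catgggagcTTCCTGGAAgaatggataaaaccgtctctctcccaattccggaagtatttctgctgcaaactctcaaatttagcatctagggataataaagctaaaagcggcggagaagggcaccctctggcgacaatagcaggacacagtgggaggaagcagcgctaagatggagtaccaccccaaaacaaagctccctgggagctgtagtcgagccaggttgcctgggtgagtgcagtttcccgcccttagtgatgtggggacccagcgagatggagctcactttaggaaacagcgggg
Cmpk2: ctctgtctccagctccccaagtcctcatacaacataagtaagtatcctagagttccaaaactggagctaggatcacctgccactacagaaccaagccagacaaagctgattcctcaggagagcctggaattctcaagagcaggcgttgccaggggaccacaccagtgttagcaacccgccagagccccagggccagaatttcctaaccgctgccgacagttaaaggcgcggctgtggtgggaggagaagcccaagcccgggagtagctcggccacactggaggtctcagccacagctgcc
Isg20: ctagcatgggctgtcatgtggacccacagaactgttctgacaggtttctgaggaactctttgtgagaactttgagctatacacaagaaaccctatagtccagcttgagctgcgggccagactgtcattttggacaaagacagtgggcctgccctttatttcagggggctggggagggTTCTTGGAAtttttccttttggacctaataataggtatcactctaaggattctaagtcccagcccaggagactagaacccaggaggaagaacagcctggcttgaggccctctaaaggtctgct
Phf11d: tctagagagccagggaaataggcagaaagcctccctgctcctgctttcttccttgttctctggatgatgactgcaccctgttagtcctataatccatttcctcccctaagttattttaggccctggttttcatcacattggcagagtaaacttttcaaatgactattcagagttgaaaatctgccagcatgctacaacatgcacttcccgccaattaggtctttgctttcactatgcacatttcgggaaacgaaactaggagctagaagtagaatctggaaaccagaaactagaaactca
Ifi47: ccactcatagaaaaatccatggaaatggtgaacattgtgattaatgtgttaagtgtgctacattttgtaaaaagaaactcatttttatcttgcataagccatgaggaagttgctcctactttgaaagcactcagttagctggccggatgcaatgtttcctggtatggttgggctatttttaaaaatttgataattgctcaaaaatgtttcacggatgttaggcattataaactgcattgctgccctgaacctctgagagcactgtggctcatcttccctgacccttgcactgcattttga
Rsad2: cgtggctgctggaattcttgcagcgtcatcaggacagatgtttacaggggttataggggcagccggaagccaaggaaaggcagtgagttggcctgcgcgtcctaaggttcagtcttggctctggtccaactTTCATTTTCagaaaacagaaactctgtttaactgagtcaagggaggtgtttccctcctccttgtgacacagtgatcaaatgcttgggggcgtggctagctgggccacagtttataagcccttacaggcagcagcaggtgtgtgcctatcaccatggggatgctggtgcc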

How the data were processed

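The authors clipped, trimmed and filtered reads with fastx_toolkit, mapped them to GRCm38 with TopHat2 and deposited raw counts per Ensembl gene from featureCounts, used here without change. The submitters' processing notes list featureCounts and edgeR, and the paper names DESeq2. Strand setting and treatment of multi-mapping reads are not given in the sources used here. The paper's methods give the 20 hours of LPS and TRIzol extraction, whereas the labels name an RNeasy kit. Of 46078 genes, 45229 matched GENCODE M21. Values of some single genes of the marker and pathway lists are not reported here.

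Every comparison used only the 4 libraries it names, in edgeR 4.0.16 (R 4.3.3; filterByExpr, TMM, glmQLFit and glmQLFTest, two-sided), Benjamini-Hochberg adjusted over all genes tested. Calls needed both a log2 fold change of 1 or more in size and an adjusted p under 0.05. The quasi-likelihood test gives no SE. Each SE printed was derived as the size of the log2 fold change divided by the square root of the test's F statistic, and is approximate. Within-lane differences used log2 CPM with a prior count of 2. The code was tested on simulated data. Alternatives were DESeq2 1.42.0, RLE factors, library size scaling, a filter of 1 count, a filter of 10 counts per library, no fold minimum, the 4 groups in one fit, the replicate block, other prior counts, and each library left out. Full statistics were given for the 5 largest and 5 smallest changes with LPS, and, per co-treatment, for the 8 genes with the lowest and the 4 with the highest mean within-lane difference among those with at least 5 CPM in LPS. The members, gene lists and motif letters were chosen with earlier results of these data known. For genes with several promoter windows, the one nearest the GENCODE 5′ end was used. Python 3.11.15 and matplotlib 3.10.9 drew the plots.

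Since the labels put equal replicate numbers in one lane, the numbers pair the libraries by lane. The difference between replicates correlated between groups, across 12873 genes, which are not independent, with r from 0.244 to 0.628. Replicates of a group differed beyond counting noise (chi-square per degree of freedom 11.9 to 41.3).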

Additional observations from a re-analysis of the deposited data

How the results depend on the processing

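With 2 libraries per group, the number of calls between co-treatments and LPS moved with the settings used. The share of all genes called the same way stands in parentheses. Genes called down by AGE+LPS against LPS, 7 by edgeR without the block, numbered 36 with DESeq2 (2.65%), 39 with a filter of at least 1 count (2.29%), 20 with 4 groups in one fit (1.62%), 37 with the replicate block (4.82%) and 38 with both (3.48%), and 21 to 36 with each library left out (1.7% to 2.94%). Genes called down by FruArg+LPS against LPS, 0 by edgeR without the block, numbered 10 with DESeq2 (0.853%), 22 with the 1-count filter (1.34%), 22 with the replicate block (3.48%), 21 with 4 groups in one fit and the block (3.46%), and 1 to 33 with each library left out (0.0245% to 6.89%). Genes called up by FruArg+LPS against AGE+LPS, 0 by edgeR without the block, numbered 1 with the 1-count filter (0.141%), 1 with the replicate block (0.546%), 2 with 4 groups in one fit and the block (0.699%), and 0 to 2 with each library left out (0.0644% to 0.738%). The cause was not tested. Leaving out each library gave 52 to 54 calls for LPS against control (9.79% to 12.2%; 54 with all libraries), 25 to 39 for AGE+LPS against control (5.76% to 8.49%; 36 with all) and 32 to 52 for FruArg+LPS against control (7.09% to 12.5%; 41 with all). In these fits the lone library is assumed to vary like the other group. They have 1 residual degree of freedom, and their pooled degrees of freedom ran from 14.6 to infinite over the comparisons. With the 1-count filter the pooled degrees of freedom were infinite. As with the replicate block, such counts rest mostly on the spread pooled over all genes. Under the other settings run, these 6 counts of calls, and the counts of genes at least 2-fold lower in both lanes, stayed within 1.5 times. With each library left out, Ube2l6 ranged from log2 -0.43 to 0.15 in AGE+LPS, reversed without LPS replicate 2. In FruArg+LPS, Oas2 ranged from -0.41 to 0.0946 (0.0313 without FruArg+LPS replicate 1) and Ube2l6 from -0.51 to 0.21 (0.18 without FruArg+LPS replicate 1), both highest without LPS replicate 2. Lgals9 in FruArg+LPS, 0.000774, turned to -0.00524 with DESeq2, -0.00518 with RLE factors, -0.0148 and -0.0329 with the filters of 1 and 10 counts, -0.00434 with 4 groups in one fit, -0.00828 with the replicate block, -0.0183 with both, -0.24 without LPS replicate 1, and ranged from -0.36 to 0.29 with each library left out. Of the other settings for single genes, 349 changed neither direction nor call, 73 added a call and 5 lost one. The shallowest library, control replicate 1, limits genes near 0.934 CPM.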
